A study of Rattus norvegicus with 21 samples.

Results

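Glutamate receptors and transporters are described here as 30 genes read in the rat dentate gyrus, the hippocampal field built around granule neurons. A gene was taken in when a probe set of the array was annotated to its symbol and to no other, and where it had 2 such probe sets the one of higher mean was used. The 30 genes are among 14506 named on the array, and 29 of them are among the 10804 genes that passed a low signal filter and were tested. They are 4 AMPA receptor subunits, 5 kainate receptor subunits, 7 NMDA receptor subunits, 1 delta receptor, 7 metabotropic receptors, 3 uptake transporters and 3 vesicular transporters.

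All 18 animals were wild-type male Wistar rats aged 2 months, and each of the 6 groups held 3 of them. Of the drug groups, 1 received agomelatine at 40 mg/kg in hydroxyethylcellulose, 1 fluoxetine at 10 mg/kg in water, 1 imipramine at 10 mg/kg in saline and 1 tianeptine at 10 mg/kg in saline. Each drug was injected into the abdomen daily over the last 2 of 6 weeks of unpredictable chronic mild stress. The stress group went through the same weeks without a drug, and the control group had neither stress nor drug. Injections are described for the drug groups only, so drug, vehicle and injection cannot be told apart in a comparison of a drug with stress, and the doses of the drugs differ.

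Glutamate released from vesicles opens AMPA, kainate and NMDA receptor channels, each built from several subunits, while the metabotropic receptors act through G proteins. Vesicular transporters load glutamate into vesicles, and uptake transporters on astrocytes and neurons clear it from the extracellular space. In the dentate gyrus these receptors serve the input from the entorhinal cortex to granule neurons, whose mossy fibres carry the signal on to CA3.

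The values are log2 expression after RMA (background subtraction, quantile normalisation and probe summary), and comparisons were made with limma over all 18 animals. A gene was called when its p, adjusted over all 10804 genes by the Benjamini-Hochberg method, was under 0.05. Prox1, a transcription factor that marks granule neurons, averaged 11.54. Each control animal was run on a first and a repeat array, which differed for some of the genes below and were averaged. The median SD between animals over all tested genes was 0.114 in the agomelatine group, against 0.0631 to 0.0852 in the other 5 groups. Labels do not say whether the 3 animals of a group came from separate cages or litters.

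Against every other group, agomelatine animals had lower Slc1a1, the neuronal uptake transporter EAAC1, and against some of them lower Grin2b, Grm2, Gria1 or Slc1a3. In the main fit described above, no glutamate receptor or transporter gene was higher at the threshold in any of the 15 group comparisons. That fit called none between stress and control or between fluoxetine, imipramine or tianeptine and stress. With all animals kept, limma called Slc17a8 higher in agomelatine against stress and tianeptine when array medians over the tested genes were made equal. With repeat control arrays alone it called Slc1a1 in stress minus control. Some fits with an animal left out also gave higher calls, as set out below. Gria2, Grin1, Grin2a and Slc17a7, which encode widely used forms of the AMPA receptor, NMDA receptor and vesicular transporter, were not called in any of the 15 comparisons.

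In counts, limma called 1 of 29 genes in agomelatine against stress, where 10.8% of all tested genes were called. It called 3 of 29 against control (9.59% of all genes), 3 against fluoxetine (11.8%), 2 against imipramine (9.39%) and 2 against tianeptine (13.5%). All these calls were lower with agomelatine, as were 6.58%, 4.31%, 6.71%, 4.35% and 6.98% of all genes in the same 5 comparisons. Counted in either direction, the shares of the glutamate genes, from 3.45% to 10.3%, were near or below those of all genes. Counted as lower calls alone, the share of the glutamate genes was above that of all genes against control (10.3%), fluoxetine (10.3%) and imipramine (6.90%) and below it against stress (3.45%) and tianeptine (6.90%), in each case with 1 to 3 genes. At an unadjusted p under 0.05 there were 6 of 29 against stress (27.0% of all genes), 9 against control (25.4%), 7 against fluoxetine (27.4%), 6 against imipramine (25.7%) and 8 against tianeptine (28.9%). The groups did not overlap for 5 of 29 genes against stress (25.2% of all genes) and for 9 of 29 against control (25.7%). The median difference between agomelatine and stress was 0.01 over the 29 genes and -0.03 over all genes on the log2 scale. In bulk tissue, fewer cells of a type and less RNA per cell cannot be told apart in any of these values.

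**Figure D1:**
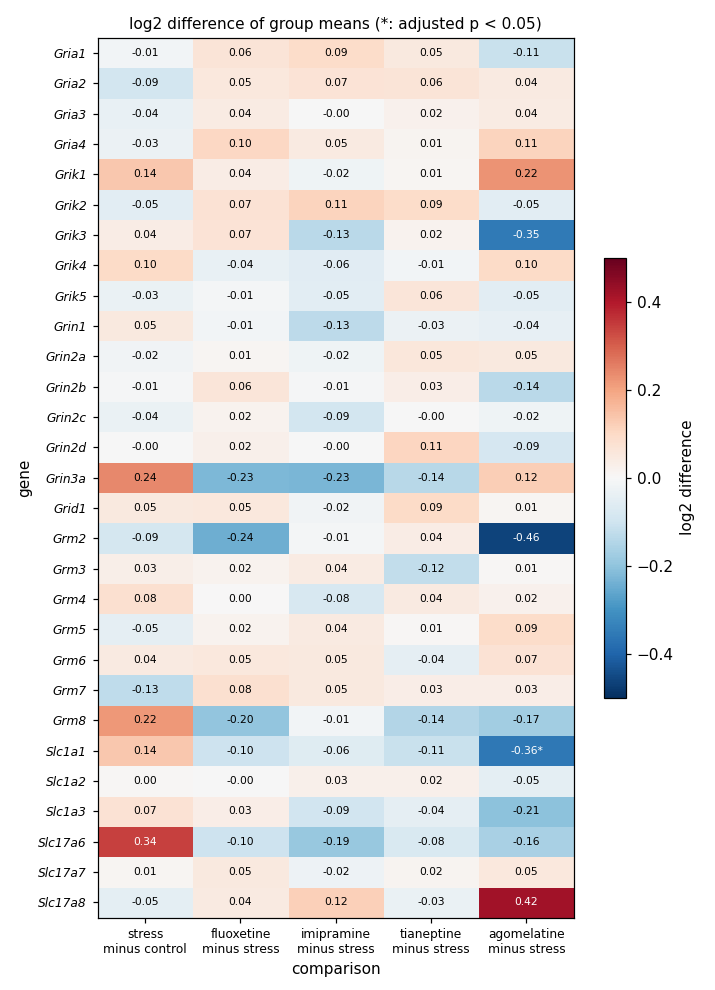
Differences of group mean log2 expression for the 29 tested genes (rows) in 5 comparisons (columns), each the first-named group minus the second, with red higher and blue lower and a star at an adjusted p under 0.05. The 1 star is Slc1a1 in agomelatine minus stress, at -0.36, and no cell of the other 4 columns is starred.

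In the main fit, stress alone moved no glutamate gene past the threshold. In stress minus control limma called 0 of 29 (0% of all genes), and 1 of 29 had an unadjusted p under 0.05 against 5.40% of all genes. That 1 gene was Slc1a1, at 0.14 ± 0.05 (SE; unadjusted p = 0.0206, adjusted p = 0.828). Differences over the 29 genes ran from -0.13 for Grm7 to 0.34 for Slc17a6. Each interval bounds what could have been missed for its own gene: that of Slc1a2 was -0.09 to 0.10, that of Grin2b was -0.10 to 0.08, and that of Grm2 was the wider -0.44 to 0.27. That of Slc17a6 was wider still, as its SD within groups was 0.32 against 0.25 for Grm2.

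Fluoxetine, imipramine and tianeptine were also without calls among these genes. Against stress limma called 0 of 29 with each of them (0% of all genes each), with 0, 0 and 1 gene at an unadjusted p under 0.05, where all genes gave 5.01%, 10.0% and 5.06%. The 1 gene was Grm3, a metabotropic receptor of neurons and astrocytes. Its values were 10.65, 10.59 and 10.61 in tianeptine animals, against 10.80, 10.66 and 10.75 in stressed animals, so the tianeptine animals were all lower, by under 0.1 for the nearest pair. The difference was not called by limma (-0.12 ± 0.06, adjusted p = 0.943). For 6.60% of all tested genes, every tianeptine animal was below every stressed animal. Imipramine minus control, with 0 of 29 called by limma and 0 at an unadjusted p under 0.05, was the 1 comparison without agomelatine in which any gene was called (0.0185% of all genes). Over the 10 comparisons that do not involve agomelatine, differences ran from -0.33 to 0.34 and the smallest adjusted p from limma was 0.536.

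A moderated F test over the 6 groups called 1 of 29 genes, where 6.76% of all genes were called, and 4 of 29 at an unadjusted p under 0.05, against 23.9%. The called gene was Slc1a1 (F = 10.4, adjusted p = 0.00614 from limma). Next were Grin2b (adjusted p = 0.0636), Grm2 (0.168) and Gria1 (0.200).

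**Figure D2:**
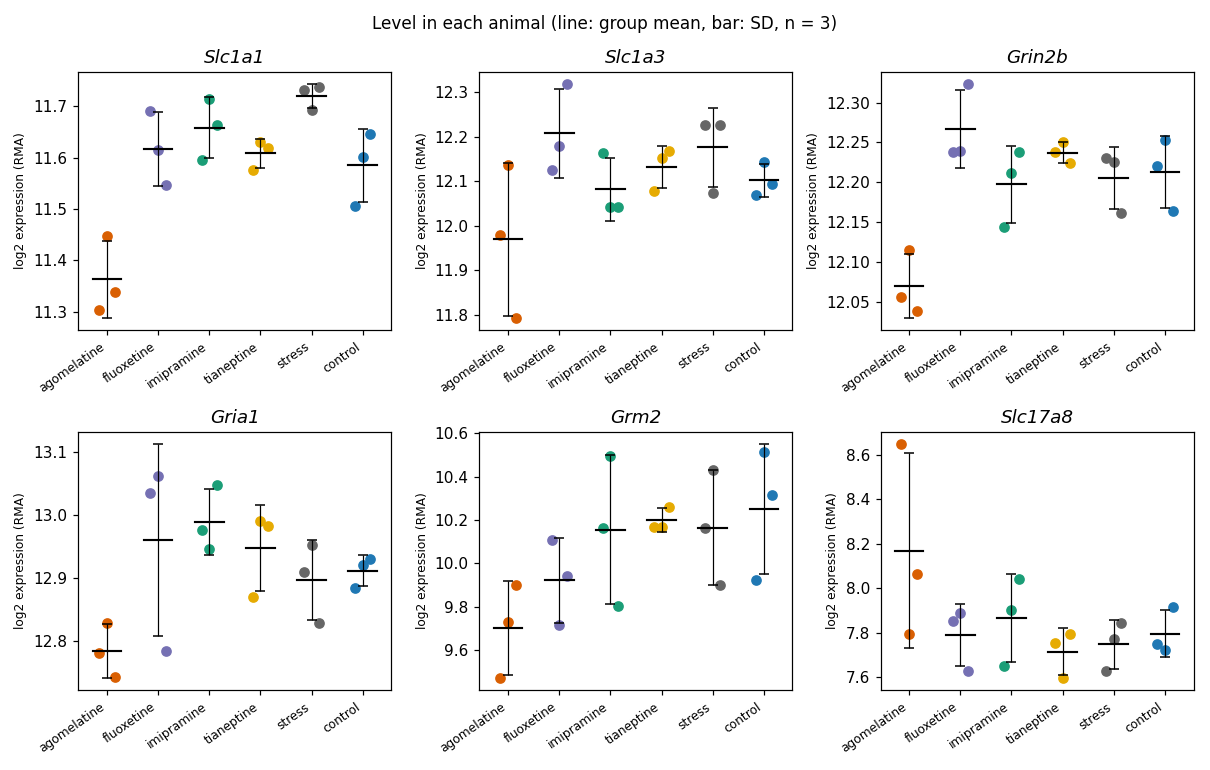
Log2 expression (vertical axis) in each animal (points) for 6 genes, by group, with a line at the group mean and a bar of 1 SD (n = 3 animals). The agomelatine animals lie below all others for Slc1a1 and Grin2b, and 1 agomelatine animal at 8.65 sets the spread for Slc17a8.

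The AMPA receptor genes encode the subunits of the fast excitatory channel. Gria1 had 12.78, 12.83 and 12.74 in agomelatine animals, against 12.97, 12.95 and 13.05 in imipramine animals. All 3 agomelatine animals were below all 3 imipramine animals, and Gria1 was called (-0.21 ± 0.06 SE, adjusted p = 0.0405 from limma). Such a separation was present for 14.3% of all tested genes. In the other groups Gria1 was 13.03, 13.06 and 12.78 with fluoxetine, 12.87, 12.99 and 12.98 with tianeptine, 12.91, 12.95 and 12.83 with stress and 12.88, 12.92 and 12.93 in controls. The agomelatine animals overlapped the fluoxetine and stressed animals, and none of these 4 differences was called. The call against imipramine ended without any 1 of 5 of the 6 animals compared, the widest being adjusted p = 0.154 without imipramine animal 3.

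Gria2, the subunit whose edited form makes AMPA channels nearly impermeable to calcium, stayed within 12.75 to 12.96 over all 18 animals. In agomelatine minus stress it differed by 0.04 (95% interval -0.05 to 0.14). Gria3 and Gria4, the remaining subunits, differed by 0.04 and 0.11 in the same comparison (adjusted p = 0.677 and 0.336 from limma).

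Among the kainate receptor genes none was called. Grik3, a low-affinity channel subunit, had 9.01, 9.24 and 9.05 in agomelatine animals, against 9.32, 9.37 and 9.87 in fluoxetine animals and 9.26, 9.34 and 9.76 in stressed animals. Every agomelatine animal was below every fluoxetine and every stressed animal, although agomelatine animal 2 was within 0.1 of the lowest stressed one. The differences did not pass the threshold against fluoxetine (-0.42 ± 0.14, adjusted p = 0.0543 from limma) or against stress (-0.35 ± 0.14, adjusted p = 0.105). Over all tested genes, every agomelatine animal was lower for 14.2% against fluoxetine and 15.9% against stress. Grik1, which also forms channels of its own, had 8.91, 8.52 and 8.30 in agomelatine animals, against 8.38, 8.04 and 8.22 in controls. The groups overlapped, and the difference of 0.36 ± 0.15 was not called (adjusted p = 0.125 from limma). Grik1 and Grik2, another such subunit, differed by 0.22 and -0.05 in agomelatine minus stress. Grik4 and Grik5, the high-affinity subunits that join those channels, differed by 0.10 and -0.05.

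Grin2b, an NMDA receptor subunit prominent in development and in young neurons, was the NMDA gene that fell. It had 12.06, 12.12 and 12.04 in agomelatine animals. The other animals had 12.24, 12.24 and 12.32 with fluoxetine, 12.14, 12.21 and 12.24 with imipramine, 12.24, 12.25 and 12.22 with tianeptine, 12.23, 12.22 and 12.16 with stress and 12.22, 12.25 and 12.16 in controls. All 3 agomelatine animals were below all 15 others, as for Slc1a1 and for 4.84% of all tested genes. Grin2b was called against fluoxetine (-0.20 ± 0.04, adjusted p = 0.00756 from limma), tianeptine (-0.17 ± 0.04, adjusted p = 0.0177) and control (-0.14 ± 0.04, adjusted p = 0.0453). Against stress the difference was -0.14 ± 0.04 with adjusted p = 0.0532, and against imipramine -0.13 ± 0.04 with adjusted p = 0.0719, so the sizes are close and the calls differ. The call against control was kept in 6 of 20 alternative settings. Among these was the main fit judged at an adjusted p under 0.1, which the call had to pass. The call against control ended without any 1 of agomelatine animals 1 and 3 and control animals 1 and 2 (limma's adjusted p from 0.0890 to 0.183). That against tianeptine ended without agomelatine animal 1 or tianeptine animal 1 or 2 (adjusted p from 0.0544 to 0.0568).

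Grin1, the obligatory NMDA subunit, differed by -0.04 in agomelatine minus stress (95% interval -0.20 to 0.12). Grin2a, which replaces much of Grin2b as neurons mature, differed by 0.05 and Grin2c by -0.02. Grin2d differed by -0.09 and Grin3a, a modulatory subunit, by 0.12. Grin3a showed single high animals, at 8.07 in agomelatine animal 1 and 8.02 in stressed animal 3, while the control animals had 7.43, 7.35 and 7.45. Grin3b averaged 7.01 over the 18 animals, below the filter at 7.17, and was not tested. Grid1, the delta receptor, acts as a synaptic organiser and differed by 0.01. Its other probe set, of lower mean and not tested for that reason, read 9.11 ± 0.17 in agomelatine animals and 9.32 ± 0.09 in stressed animals (SD, n = 3 each). The chosen probe set read 10.93 ± 0.20 and 10.92 ± 0.18 in these groups, and whether the 2 probe sets differ was not tested.

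Grm2, a presynaptic inhibitory metabotropic receptor of the mossy fibre pathway, had the most negative difference of the 29 genes over the 15 comparisons. Its values were 9.47, 9.73 and 9.90 in agomelatine animals, against 9.93, 10.51 and 10.32 in controls. The highest agomelatine animal and the lowest control animal were almost level, so the groups were apart by a narrow margin. Grm2 was called lower against control (-0.55 ± 0.17, adjusted p = 0.0464 from limma). With 10.16, 10.43 and 9.90 in stressed animals the groups overlapped, and the difference from stress was -0.46 ± 0.17 (adjusted p = 0.0821). Without agomelatine animal 1 the difference from control was -0.44 (adjusted p = 0.177), and without control animal 2 it was -0.42 (adjusted p = 0.216). The call also ended without agomelatine animal 2 (adjusted p = 0.0692) and without control animal 3 (0.113).

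The other 6 metabotropic receptors were not called. Grm5, coupled to calcium release and present on granule neurons and astrocytes, had 11.83, 11.78 and 11.84 in agomelatine animals, against 11.70, 11.76 and 11.71 in stressed animals. All agomelatine animals were higher, yet the difference of 0.09 ± 0.05 did not pass (adjusted p = 0.266 from limma). Grm3, related to Grm2, differed by 0.01 in agomelatine minus stress. The presynaptic receptors Grm4, Grm7 and Grm8 differed by 0.02, 0.03 and -0.17, and Grm6, known from retinal bipolar cells, by 0.07.

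**Figure D3:**
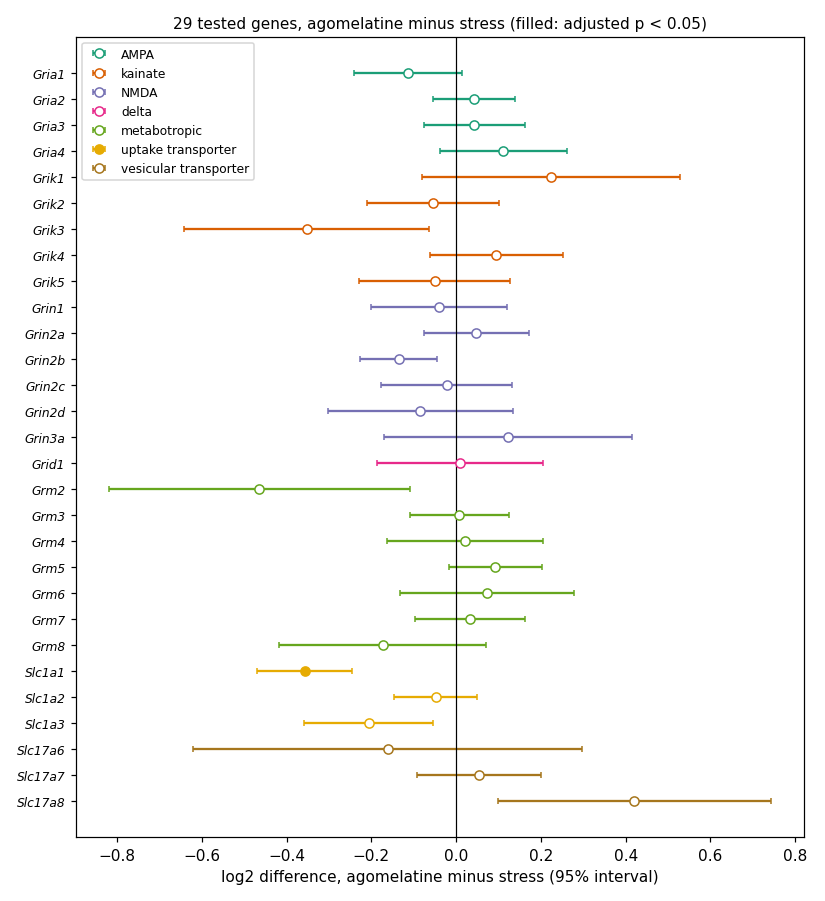
Log2 difference of agomelatine minus stress (horizontal axis) with its 95% interval for the 29 tested genes (rows), coloured by family and filled at an adjusted p under 0.05. Slc1a1 at -0.36 is the filled point, and the intervals of Grik3, Grin2b, Grm2, Slc1a3 and Slc17a8 also leave out 0.

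Slc1a1 takes up glutamate and cysteine into neurons. It had 11.30, 11.45 and 11.34 in agomelatine animals, against 11.73, 11.69 and 11.74 in stressed animals. Every agomelatine animal was below every stressed animal, and Slc1a1 fell by 21.9% (-0.36 ± 0.05 SE, 95% interval -0.47 to -0.24, adjusted p = 0.000976 from limma). The other groups had 11.69, 11.61 and 11.55 with fluoxetine, 11.60, 11.72 and 11.66 with imipramine, 11.58, 11.63 and 11.62 with tianeptine and 11.51, 11.60 and 11.65 in controls. All 15 animals outside the agomelatine group were higher than its 3.

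The differences of agomelatine from the other groups were -0.25 ± 0.05 against fluoxetine, -0.295 against imipramine, -0.245 against tianeptine and -0.22 against control, with limma's adjusted p at 0.00591, 0.00294, 0.00648 and 0.0153. Slc1a1 was the 1 member called in all 5 comparisons, where 1.69% of all tested genes were called lower in all 5. The control comparison leaned on single animals: adjusted p was 0.0707 without agomelatine animal 1, 0.0709 without control animal 2 and 0.0585 without control animal 3.

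Slc1a1 also differed between the 2 arrays of a control animal, by an amount within the range of its group differences. On the repeat arrays of the 3 control animals it read 11.34, 11.51 and 11.52, against 11.67, 11.70 and 11.78 on their first arrays. Each animal was lower on its repeat array, by -0.26 ± 0.04 on average (adjusted p = 0.000325, paired limma fit), and the agomelatine range of 11.30 to 11.45 overlapped the repeat arrays. Set against the repeat arrays alone, the agomelatine difference was -0.09 (adjusted p = 0.348), and against the first arrays alone -0.35 (adjusted p = 0.000443). With repeat arrays alone as control, limma also called Slc1a1 in stress minus control. No label gives the round in which an array was run, and the part of such array differences in the other comparisons was not tested.

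**Figure D4:**
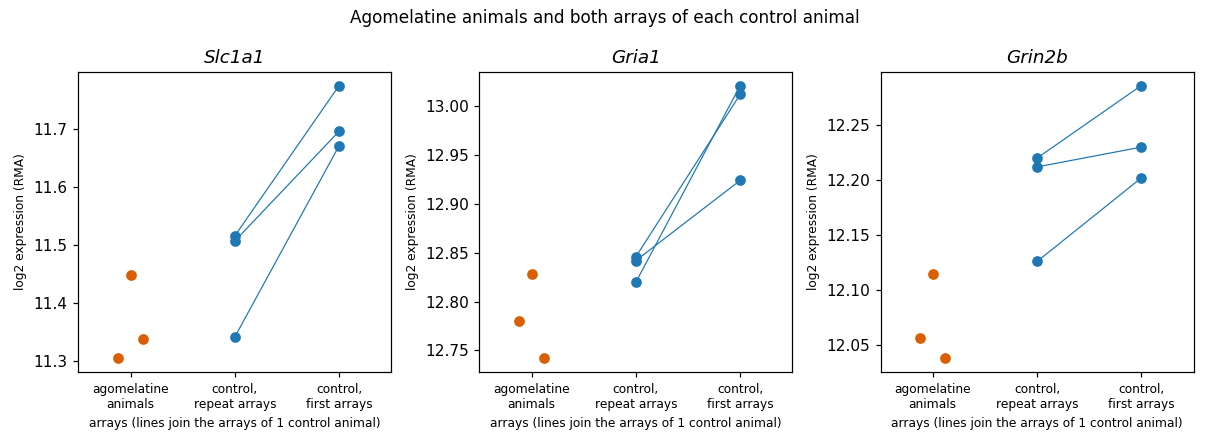
Log2 expression (vertical axis) of 3 genes in the agomelatine animals, on the repeat arrays of the control animals and on their first arrays, with lines joining the arrays of 1 control animal. For Slc1a1 the repeat arrays at 11.34 to 11.52 reach into the agomelatine range. For Grin2b the agomelatine animals lie below both sets of control arrays, narrowly so for the repeat arrays (12.115 against 12.126 for the nearest pair).

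Over the 29 genes the paired fit called 3 between repeat and first control arrays, against 11.9% of all genes. Gria1 was lower on the repeat arrays (-0.15 ± 0.03, adjusted p = 0.00478) and Gria3 higher (0.13 ± 0.04, adjusted p = 0.0250), beside Slc1a1. Grin2b differed by -0.05 and Grm2 by -0.02, neither called. For Gria1 the 2 sets of control arrays thus differed by -0.15 where agomelatine differed from imipramine by -0.21, and for Grm2 by -0.02 where agomelatine differed from control by -0.55.

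Slc1a2 and Slc1a3 are the astrocyte uptake transporters GLT-1 and GLAST. Slc1a3 had 11.98, 12.14 and 11.79 in agomelatine animals, against 12.12, 12.18 and 12.32 in fluoxetine animals. The groups overlapped, with agomelatine animal 2 above fluoxetine animal 1, and Slc1a3 was called lower (-0.24 ± 0.07, adjusted p = 0.0417 from limma). Without agomelatine animal 3 the difference was -0.15 (adjusted p = 0.161) and without fluoxetine animal 3 it was -0.18 (adjusted p = 0.142). The call also ended without agomelatine animal 1 (adjusted p = 0.0789) and without fluoxetine animal 2 (0.0721). Against stress it was -0.21 ± 0.07 (adjusted p = 0.0726). Slc1a2, with 13.40, 13.37 and 13.21 in agomelatine animals, against 13.40, 13.39 and 13.33 in stressed animals, differed by -0.05 (95% interval -0.15 to 0.05).

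Of the called genes, Slc1a3 has an entry among the RefSeq promoters of build GRCr8, which hold 19 of the 30 genes. It is printed beside that of Slc1a2 because the pair serves the same cells while 1 of the 2 was called. The sequences are the 250 bases before the start of the gene, 5′ to 3′ on the strand of the gene, at chr2:59557809-59558058 (minus strand) for Slc1a3 and chr3:109459859-109460108 (plus strand) for Slc1a2. Nothing is in capitals because none of the motifs searched on both strands was found.
Slc1a3: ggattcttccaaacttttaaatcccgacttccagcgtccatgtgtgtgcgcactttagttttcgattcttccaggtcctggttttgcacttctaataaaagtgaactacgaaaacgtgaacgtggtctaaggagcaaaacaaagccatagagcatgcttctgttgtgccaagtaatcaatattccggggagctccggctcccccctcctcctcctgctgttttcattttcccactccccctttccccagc
Slc1a2: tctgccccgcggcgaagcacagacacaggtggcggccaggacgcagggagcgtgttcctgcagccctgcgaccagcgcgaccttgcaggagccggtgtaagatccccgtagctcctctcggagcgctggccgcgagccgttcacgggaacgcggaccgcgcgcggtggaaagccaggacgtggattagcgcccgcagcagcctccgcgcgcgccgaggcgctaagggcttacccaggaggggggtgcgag
The Slc1a3 stretch has a GC content of 48.0% and that of Slc1a2 71.2%, where the median over 27457 promoters is 52.0%. The motifs were the GC box GGGCGG (in 32.4% of all promoters), the short cAMP response site TGACG (19.0%), the full site TGACGTCA (1.7%), which holds the short one, and the E-box CACGTG (5.79%). Over the 19 promoters, the GC box was in 4, the short cAMP response site in 3 and the other motifs in 0. Slc1a1, Grin2b, Grm2 and Gria1 were not among the promoters used here.

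The vesicular transporters were not called. Slc17a7 (VGLUT1), the form of cortical and hippocampal principal neurons, had 13.07, 13.20 and 13.0 in agomelatine animals, against 12.93, 13.18 and 13.0 in stressed animals. These overlapped, and the difference was 0.05 (95% interval -0.09 to 0.20). Slc17a8 (VGLUT3), found in some interneurons and serotonin fibres, had 8.65, 7.79 and 8.06 in agomelatine animals, against 7.63, 7.77 and 7.84 in stressed animals. Only agomelatine animals 1 and 3 were above the stressed animals, and the difference of 0.42 ± 0.15 was not called (adjusted p = 0.0833 from limma). Without agomelatine animal 2 limma called Slc17a8 higher against each of the other 5 groups, and it did so against stress and tianeptine with equal array medians over the tested genes. Without agomelatine animal 3 limma called Grik1 and Grin3a higher against control. Slc17a6 (VGLUT2), the form of thalamic and other subcortical inputs, ranged from 6.76 in control animal 2 to 8.16 in stressed animal 3, and differed by -0.16 ± 0.22 in agomelatine minus stress.

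Markers of other cell types moved in the same animals. Each list was scored in an animal by taking every tested marker's difference from its own mean over the 18 animals and averaging these differences. Oligodendrocyte markers scored 0.37 to 0.71 in agomelatine animals, against -0.20 to 0.03 in the other 15. Against stress, 12 of 14 were called higher, as were 4.18% of all genes. Markers of CA pyramidal neurons, the neurons of the neighbouring hippocampal field, scored 0.10 to 0.45 in agomelatine animals. The others scored -0.19 to 0.23, so these ranges overlapped, and 4 of 10 markers were called higher against stress (4.18% of all genes). Granule neuron markers scored -0.30 to -0.18 in agomelatine animals, against -0.08 to 0.17 in the others. Against stress, 3 of 6 were called lower, as were 6.58% of all genes. Astrocyte markers, which do not include Slc1a2 or Slc1a3, scored -0.21 to -0.02 in agomelatine animals, against -0.10 to 0.14 in the others, so these ranges overlapped. Of the 13 astrocyte markers, 2 were called lower against stress, whose animals scored 0.03 to 0.14, and 0 against imipramine, whose animals scored -0.05 to 0.02. Over all genes, 6.58% were called lower against stress and 4.35% against imipramine.

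Agomelatine animal 3, lowest in Slc1a3 and Slc1a2, was also lowest of all animals for the astrocyte markers, at -0.21. Agomelatine animals 1 and 2 scored -0.02 and -0.03 for these markers. Slc1a2 was in the same order in these 2 animals, at 13.40 and 13.37, and Slc1a3 in the other order, at 11.98 and 12.14. Agomelatine animal 1, highest in Slc17a8, Grin3a and Grik1, scored 3.24 for choroid plexus markers, against -0.22 and -0.35 in the other agomelatine animals, and stressed animal 1 scored 0.85. Stressed animal 3, highest in Slc17a6, scored 0.24 for interneuron markers and 0.23 for CA pyramidal markers, the highest of the stressed animals in both. For thalamus and subiculum markers it scored -0.06, below stressed animal 1 at 0.22. The part of these marker differences in the values of Slc1a1, Grin2b, Grm2, Gria1 and Slc1a3 was not tested.

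**Figure D5:**
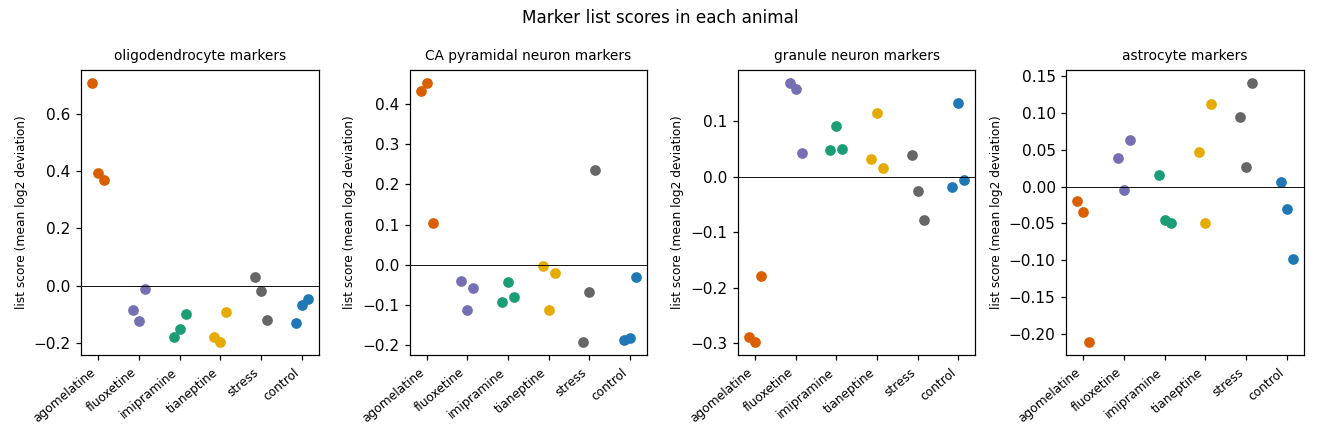
Scores of 4 marker lists (vertical axis, mean log2 deviation from the mean of all 18 animals) in each animal, by group. The agomelatine animals lie above all others for oligodendrocyte markers, at 0.37 to 0.71, and below all others for granule neuron markers, at -0.30 to -0.18.

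Genes that act with these receptors changed in both directions with agomelatine. Of 55 tested genes in 3 lists (auxiliary subunits, synaptic scaffolds and signalling, and metabolism and carriers), limma called 5 higher and 6 lower against stress, 20.0% in all against 10.8% of all genes. Against control it called 6 higher and 3 lower, 16.4% in all against 9.59% of all genes. It called 4 higher and 6 lower against fluoxetine (18.2%, where 11.8% of all genes were called), 3 higher and 4 lower against imipramine (12.7%, where 9.39% were) and 4 of each against tianeptine (14.5%, where 13.5% were). Leaving out 1 animal gave 10.9% to 16.4% against stress, and in the fits with these lowest and highest shares 5.30% and 10.5% of all genes were called. Against control it gave 7.27% to 20.0%, and in the fits at these ends 2.57% and 11.5% of all genes were called. The lowest shares came without stressed animal 2 and without control animal 2. No test of the lists was made.

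Among the 12 auxiliary subunit genes, 2 rose and 3 fell against stress (41.7%, where 10.8% of all genes were called). Neto1, a partner of kainate and NMDA receptors, averaged 12.48 ± 0.003 in agomelatine animals and 12.10 ± 0.06 in stressed animals (SD, n = 3 each), a rise of 0.38 ± 0.06 (SE, adjusted p = 0.00147 from limma). Olfm3, a secreted olfactomedin, averaged 9.05 ± 0.16 with agomelatine and 8.58 ± 0.15 with stress, a rise of 0.46 ± 0.10 (adjusted p = 0.00583). Olfm1, a related protein found in AMPA receptor complexes, fell by 0.20 (adjusted p = 0.00837), Olfm2 by 0.38 (adjusted p = 0.0374) and the AMPA receptor partner Cacng3 by 0.30 (adjusted p = 0.0481). Against control Neto1, Olfm3 and Neto2, the relative of Neto1, rose by 0.45, 0.62 and 0.34, and Olfm1 and Cacng3 fell by 0.26 and 0.34. Cacng3 spread widely within the agomelatine group (SD 0.27), and it was called in 1 of 7 alternative settings against stress (each of 6 animals left out, and array weights) and in 4 of 9 against control (the same, and 1 set of control arrays at a time). Olfm2 was called in 1 of 7 against stress and Neto2 in 5 of 9 against control, while Neto1, Olfm1 and Olfm3 were called in all settings.

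Among the 28 scaffold and signalling genes, 3 rose and 1 fell against stress (14.3%, near the 10.8% of all genes). Homer1, a scaffold that binds group I metabotropic receptors, averaged 9.79 ± 0.11 with agomelatine and 9.33 ± 0.12 with stress, a rise of 0.46 ± 0.11 (adjusted p = 0.0110 from limma). Its relative Homer2 rose by 0.25 (adjusted p = 0.0458) and the postsynaptic adhesion protein Nlgn1 by 0.19 (adjusted p = 0.0282). Nrn1, an activity-induced neuritin, fell by 0.23 (adjusted p = 0.0444), and on the repeat control arrays it differed from the first by -0.23 as well. Against control, Homer1 and Homer2 rose by 0.48 and 0.47. Homer2, Nlgn1 and Nrn1 were each called against stress in 2 of 7 settings.

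Among the 15 metabolism and carrier genes, 0 rose and 2 fell against stress (13.3%, near the 10.8% of all genes). Slc25a18, a mitochondrial glutamate carrier of astrocytes, averaged 10.09 ± 0.03 with agomelatine and 10.42 ± 0.07 with stress, a fall of 0.33 (adjusted p = 0.00246 from limma), and Slc3a2, the shared heavy chain of several amino acid exchangers, fell by 0.22 (adjusted p = 0.0251). Repeat minus first control arrays gave -0.14 for Slc25a18 and -0.12 for Slc3a2. Against control Slc25a18 fell by 0.19 and Gad2, which makes GABA from glutamate, rose by 0.34. Neto1, Olfm3 and Homer2 were also called higher, and Olfm1, Cacng3, Nrn1 and Slc25a18 lower, against each of fluoxetine, imipramine and tianeptine. Nlgn3, a neuroligin, was called lower against fluoxetine (-0.21, adjusted p = 0.0208 from limma). Slc3a2 was called in 1 of 7 settings against stress, Slc25a18 in 1 of 9 and Gad2 in 4 of 9 against control.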

How the data were processed

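The authors deposited log2 expression values per probe set, for which the submitters' processing notes name RMA and Affymetrix Expression Console 1.2. This method equalises the arrays' distributions and tends to shrink differences at low signal. The 21 arrays hold 18 animals, because each control animal was run on 2 arrays, which were averaged. Of 29214 probe sets, 15310 had 1 gene symbol in the platform annotation and were kept with a mean at or above the 25th percentile. Each gene was represented by its probe set with the highest mean, which left 10804 genes. In limma 3.58.1 (R 4.3.3) each group had its own mean (12 residual degrees of freedom, eBayes with a variance trend), and each of 15 comparisons was adjusted over all genes by the Benjamini-Hochberg method. Repeat and first control arrays were compared in a paired fit. The scripts were tested on simulated data. The members, gene lists and markers were chosen with earlier results of these data known. All members are named, and of each list up to 4 called genes per direction. Arrays give no read depth, so the number of animals limits the precision. The p-values of group comparisons set a difference against the spread between animals, pooled over the 6 groups. Those of the paired fit set it against how the array difference varied over the control animals. Over all tested genes the agomelatine group had the highest median SD, so the pooled spread can be too small for its comparisons. Equal array medians over the tested genes, and the settings of the 3 gene lists, were added after seeing the data. Those settings leave out 1 animal, use 1 set of control arrays or weight the arrays.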

Additional observations from a re-analysis of the deposited data

How the results depend on the processing

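Of 220 alternative values for the member differences that were called, none changed sign. Settings that alter only the filter, the variance trend or the groups fitted could not change it. They leave a difference of group means as it was. Of the 220, 158 stayed past the threshold and 62 did not, which includes fits with 1 animal left out. The 158 include the main fit judged at an adjusted p under 0.1, which every called difference passes. Slc1a1 against stress and against imipramine stayed past the threshold under every alternative run. Against control Slc1a1 missed the threshold with the 2 groups alone (adjusted p = 0.0956 from limma), array weights (0.0527) and repeat control arrays alone (0.348). Counts of called members moved as follows (limma, of 29 unless the filter was changed), and the cause was not tested. With no low signal filter Grin3b was tested as well. The filter at the 50th percentile left out Grik1, Grin2d, Grin3a, Grm6, Grm8, Slc17a6 and Slc17a8, so counts there are of fewer members. Against control there were 0 with the 2 groups alone, array weights or repeat control arrays, 1 with equal array medians, no low signal filter or no variance trend, and 0 to 4 with 1 animal left out (0 without agomelatine animal 1 or control animal 2). Against fluoxetine there were 0 with the 2 groups alone, 5 at an adjusted p under 0.1 and 2 to 5 with 1 animal left out (5 without agomelatine animal 2). Against imipramine there were 4 at 0.1, 1 with all 21 arrays, equal medians (either kind) or no trend, and 1 to 3 with 1 animal left out. Against stress there were 5 at 0.1, 2 with equal medians over the tested genes or a filter at the 50th percentile, and 1 to 4 with 1 animal left out (4 without agomelatine animal 2). Against tianeptine there were 6 at 0.1, 1 with all 21 arrays, array weights or a further quantile normalisation, and 1 to 4 with 1 animal left out (4 without agomelatine animal 2). The F test gave 2 at 0.1 or the 50th percentile, 0 with all 21 arrays, and 0 to 2 with 1 animal left out (0 without agomelatine animal 1). Repeat minus first arrays gave 0 with no trend, and stress minus control gave 1 with repeat control arrays alone.

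Over 45 pairs of animals with the same replicate number, deviations from group means correlated from -0.30 to 0.29 (median -0.02). Over 90 pairs with different numbers they correlated from -0.34 to 0.31 (median 0.01), so the main fit left the number out. Such correlations, from 3 animals a group, cannot show whether animals shared a cage or a round of arrays. With the number as a block, 2 members were called against control, 2 against fluoxetine, 2 against imipramine, 1 against stress and 2 against tianeptine, and adjusted p was 0.0626 for Grin2b against control and 0.0588 for Slc1a3 against fluoxetine. With 3 animals a group, small differences at low signal could not be detected.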
